A study of Rattus norvegicus with 18 samples.

Results

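The TET dioxygenases, the DNA methyltransferases and the enzymes that act beside them were followed as 10 rat genes, Tet1, Tet2, Tet3, Tdg, Dnmt1, Dnmt3a, Dnmt3b, Mbd2, Idh1 and Idh2. They were taken by gene name from the deposited peak list, which gave 10 of the 32883 gene identifiers with RNA counts and 128 of the 215951 peaks of 5-hydroxymethylcytosine. The cells were primary Schwann cells of the rat, the glia that wrap peripheral axons. One group had been given vitamin C and the control group had not, and both were collected at passage 3. The labels used here give no strain, age, dose or length of treatment. Each group has 3 libraries of RNA depleted of ribosomal RNA, 3 of DNA immunoprecipitated for 5-hydroxymethylcytosine (hMeDIP) and 3 of input DNA, 18 in all. The labels do not tie the 3 samples of a group to separate animals or cultures, so the p-values below rest on the spread among samples that may be technical repeats.

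TET enzymes oxidise 5-methylcytosine to 5-hydroxymethylcytosine and further to formyl- and carboxylcytosine, using oxygen, iron and 2-oxoglutarate, and ascorbate is known to help this reaction by keeping the iron reduced. TDG is the glycosylase that removes the last oxidised forms, so that repair can restore plain cytosine. DNMT1 copies methylation after replication, DNMT3A and DNMT3B place it anew, MBD2 binds methylated DNA, and IDH1 in the cytosol and IDH2 in mitochondria make 2-oxoglutarate from isocitrate.

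RNA libraries held 23381814 to 33173282 reads in genes. hMeDIP libraries had 24020306 to 39899445 reads in peaks and input libraries 7201638 to 9521037. Among RNA libraries, vitamin C replicate 1 stood apart, with 44.9% of its reads aligned at several places whereas the other treated libraries had 34.4% and 32.7% and controls 36.5% to 42.5%. It was the highest or lowest treated library for all 10 genes, which was also the case for 84.9% of the 12925 genes tested. Of 3 libraries alike, each would be highest or lowest for most genes. By chi-square per degree of freedom, vitamin C replicate 1 differed from treated replicates 2 and 3 at 27.4 and 38.3. Those differed from each other at 5.26. hMeDIP replicates 1 and 3 differed by less than sampling noise in each group and were counted as 1 sample, so hMeDIP comparisons rest on 2 samples a group. All 8 Schwann cell markers examined, Sox10 among them, were detected. Of these, 2 rose (Cdh19, Mbp) and 2 fell (S100b, Erbb3). All 3 mural cell markers tested rose (Pdgfrb, Des, Tagln), and the summed list reached 188 to 216 CPM (counts scaled to the library's reads in genes, as edgeR gives them) with vitamin C and 73.9 to 76.4 CPM in controls, while Rgs5 had at most 1 read and Acta2 at most 10 reads in any library. Of fibroblast markers 1 rose (Col1a1) and 2 fell (Pdgfra, Pi16), with a sum of 9198 to 10710 CPM against 4380 to 4568 CPM that is nearly all Col1a1, and Dpt had no read. The macrophage list summed to 1.18 to 1.55 CPM with vitamin C and 1.17 to 1.39 CPM in controls, and its only tested marker (Cd68) did not pass. The endothelial list summed to 2.99 to 4.14 CPM against 1.26 to 1.79 CPM, from Tek, which rose, and Cdh5 had no read. Of 3 neuronal markers tested 1 rose (Tubb3) and 1 fell (Nefl), with sums of 71.5 to 90.6 CPM and 76.7 to 93.9 CPM. The part of these shifts in the results on the 10 genes was not tested, and in bulk RNA fewer cells of a type and less RNA per cell cannot be told apart.

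In RNA, the largest of the differences among the 10 genes was in Idh1, which fell by 37.8% with vitamin C. Tet3 rose by 36.8% and Mbd2 by 18.9%, while Idh2 fell by 24.1% and Tdg by 11.9%. Tet1, Tet2, Dnmt1, Dnmt3a and Dnmt3b did not pass the threshold. With an adjusted p of 0.05 as the threshold (edgeR quasi-likelihood F test, Benjamini-Hochberg over all genes), 2 genes of 10 rose and 3 fell. Over all 12925 genes tested 40.1% passed, 19.1% higher and 21.0% lower, so the share of these 10 genes that passed lay near that background. The treated and control libraries did not overlap in 6 of the 10, as in 54.7% of all genes.

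**Figure D1:**
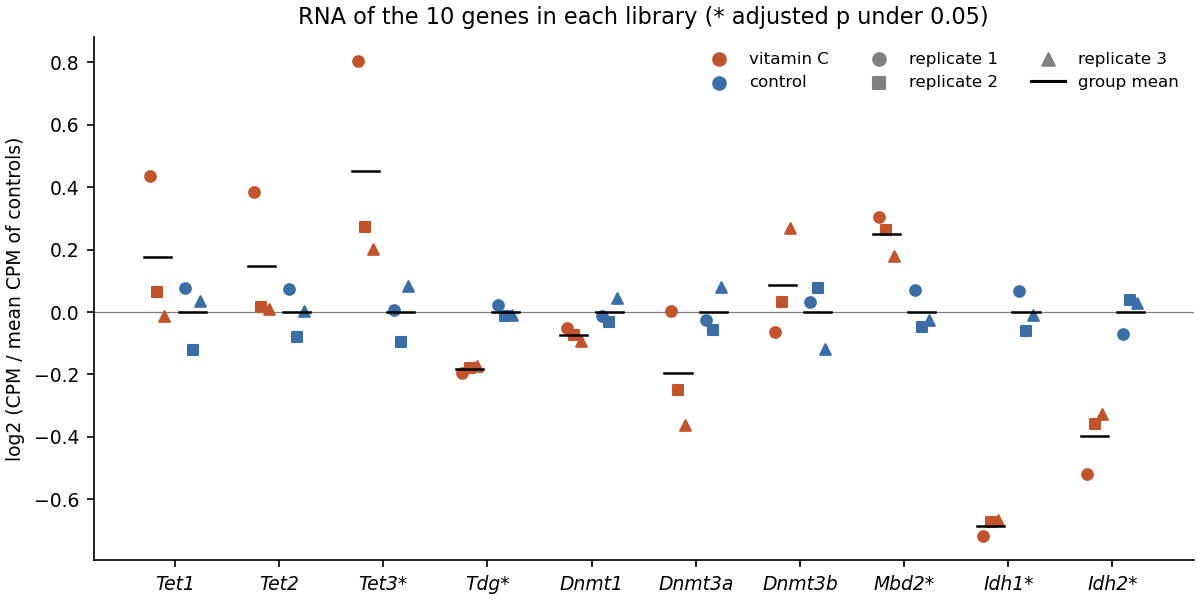
RNA of the 10 genes in each library, as the log2 ratio of its CPM to the mean CPM of the controls, vitamin C libraries to the left of controls; bars are group means and asterisks mark adjusted p under 0.05. All 3 vitamin C libraries lie below every control for Tdg, Dnmt1, Idh1 and Idh2 and above every control for Tet3 and Mbd2. For Tet1, Tet2 and Tet3 vitamin C replicate 1 lies apart from the other treated libraries.

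Of the TET genes, Tet3 had 146, 101 and 95.9 CPM in the vitamin C libraries, against 83.8, 78.2 and 88.4 CPM in the controls. The groups did not overlap, and replicate 1 was far above the other treated libraries. The rise was 0.45 ± 0.15 on the log2 scale (SE, n = 3 each, edgeR adjusted p = 0.0378), and without vitamin C replicate 1 it was 0.24 ± 0.06 (edgeR adjusted p = 0.00725). The call was lost on leaving out control replicate 1, 2 or 3 (edgeR adjusted p = 0.103, 0.132 and 0.0836). Tet2, a TET enzyme without a CXXC DNA-binding domain of its own, had 48.7, 37.7 and 37.6 CPM with vitamin C, against 39.3, 35.3 and 37.4 CPM in controls. Tet1 had 14.3, 11.0 and 10.4 CPM with vitamin C, against 11.1, 9.69 and 10.8 CPM. In both genes the groups overlapped and the highest value was vitamin C replicate 1. Their differences were 0.15 ± 0.11 for Tet2 and 0.18 ± 0.13 for Tet1 (edgeR adjusted p = 0.298 and 0.303), and without vitamin C replicate 1 they were 0.014 and 0.032.

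Tdg, the glycosylase of the oxidised bases, had 77.4, 78.3 and 78.7 CPM with vitamin C, against 90.1, 87.8 and 88.0 CPM in controls. The replicates lay close together and the groups were apart, with a fall of 0.18 ± 0.05 on the log2 scale (edgeR adjusted p = 0.0206). The call was lost with DESeq2 (adjusted p = 0.0598), with no filter on low counts (edgeR adjusted p = 0.0715) and on leaving out vitamin C replicate 2, control replicate 1 or control replicate 2 (edgeR adjusted p = 0.0740, 0.0615 and 0.0725). An annotated neighbour, the protein-coding gene Glt8d2, overlaps Tdg in RefSeq, and the strand setting of the counting is not stated, so reads of the overlap cannot be told apart. Annotated non-coding RNA genes overlap Tet1, Tet3, Dnmt3a and Mbd2 in the same way, and a pseudogene overlaps Dnmt3b.

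Among the methyltransferases, Dnmt1 had 122, 119.7 and 118 CPM with vitamin C, against 125, 123 and 129.8 CPM in controls. All treated values lay below all controls, by 4.86% on average, but the difference of −0.07 ± 0.05 did not pass (edgeR adjusted p = 0.300). Dnmt3a had 42.8, 35.9 and 33.2 CPM with vitamin C, against 42.0, 41.0 and 45.1 CPM in controls. Vitamin C replicate 1 was the treated library that overlapped the controls. The difference was −0.19 ± 0.10 (edgeR adjusted p = 0.137), and without that library Dnmt3a fell by 0.30 ± 0.06 (edgeR adjusted p = 0.00239). Dnmt3b was thinly covered, with 85, 99 and 120 reads with vitamin C, against 98, 125 and 77 reads in controls. Its difference of 0.08 ± 0.14 was smaller than its error (edgeR adjusted p = 0.649).

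Mbd2, the reader of methylated DNA, had 103, 100.1 and 94.5 CPM with vitamin C, against 87.7, 80.7 and 82.0 CPM in controls. Each treated library was above each control, and the rise was 0.25 ± 0.06 (edgeR adjusted p = 0.0115). Leaving out control replicate 2 ended the call (edgeR adjusted p = 0.0669).

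Idh1 had 97.4, 101 and 101 CPM with vitamin C, against 168, 154 and 159 CPM in controls. The treated libraries lay close together and far below every control. The change was −0.69 ± 0.06 (edgeR adjusted p = 3.59e-05) and Idh1 passed under all 11 alternatives run. Idh2 had 159, 177 and 181 CPM with vitamin C, against 216, 233 and 232 CPM in controls. The groups did not overlap, and Idh2 fell by 0.40 ± 0.07 (edgeR adjusted p = 0.00189). Scaled by all counted reads, the adjusted p was 0.0595 for Idh2, 0.381 for Tdg and 0.246 for Mbd2 (edgeR), with changes of −0.40, −0.19 and 0.24.

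Genes of the surrounding pathways were taken from 3 lists. Of 13 tested genes that make or use 2-oxoglutarate and related acids, none rose and 3 fell, where 19.1% of all genes rose and 21.0% fell. The list's median change was −0.10 against −0.01 for all genes. Got2, the mitochondrial aspartate aminotransferase, fell to 142 ± 5.93 CPM with vitamin C, against 189 ± 5.37 CPM in controls (log2 change −0.41 ± 0.06, edgeR adjusted p = 0.000628). D2hgdh, which oxidises D-2-hydroxyglutarate back to 2-oxoglutarate, fell by 0.39 ± 0.09, and Fh, the fumarase, fell by 0.23 ± 0.06. Idh3a, a subunit of the NAD-dependent isocitrate dehydrogenase, had 64.6 ± 1.16 CPM with vitamin C and 68.8 ± 2.18 CPM in controls and did not pass (log2 change −0.09 ± 0.06, edgeR adjusted p = 0.219). So the NADP-dependent enzymes Idh1 and Idh2 passed and the tested subunit of the NAD-dependent one did not, a contrast that was not itself tested.

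Of 8 tested genes for the removal or binding of oxidised cytosine, none rose and 2 fell, with a median of −0.06. Over all genes 19.1% rose and 21.0% fell, the background for each list in this paragraph. Parp1, which signals DNA strand breaks, fell to 75.1 ± 2.14 CPM with vitamin C, against 106 ± 7.33 CPM in controls (log2 change −0.50 ± 0.07, edgeR adjusted p = 0.000523). Gadd45a, a stress gene linked to active demethylation, fell by 0.47 ± 0.07 (edgeR adjusted p = 0.00102). The repair genes Xrcc1, Lig3 and Smug1 did not pass, with changes of −0.03, −0.13 and −0.02. Of 7 tested readers and maintenance genes, Zbtb4 rose by 0.23 ± 0.06 and Zbtb38, a zinc finger protein that also binds methylated DNA, fell by 0.23 ± 0.05. Of 4 tested proliferation genes 2 fell, Mcm6 by 0.30 ± 0.06 and Aurka by 0.34 ± 0.11, and Mki67 stood at 0.441 ± 0.139 CPM with vitamin C and 0.469 ± 0.148 CPM in controls.

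5-Hydroxymethylcytosine was then examined at the 10 genes themselves. The genes held between 3 peaks (Dnmt1) and 40 peaks (Tet3). Of the 10, Tet3 was the most densely covered, with peaks over 50.9% of its 90954-base transcript span, and 392 of 17003 genes with a peak (2.31%) had at least as many, where the median gene had 3. In Tet1 peaks covered 4.58% of the span, in Tet2 12.7% and in Mbd2 32.3%. Dnmt3a had 20 peaks, Mbd2 18, Tet2 16, Dnmt3b 10, Tdg 7, Tet1 6, and Idh1 and Idh2 4 each.

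hMeDIP reads lay more often in peaks with vitamin C, at 41.4%, 43.9% and 40.8% of all counted reads in the treated libraries, against 31.7%, 30.8% and 35.7% in controls. In input the shares were 8.43% to 8.58% with vitamin C and 8.49% to 8.65% in controls. TMM scaling, used for all tests below unless stated, takes such a shared shift out, so that changes are relative to the typical peak or gene. Scaling by all counted reads instead raised the median log2 change of all genes' summed peaks to 0.43, against 0.01 with TMM.

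Of the 128 peaks, 64 rose and 22 fell with vitamin C (edgeR quasi-likelihood F test, adjusted p under 0.05 over all peaks). Among all 109330 peaks given to a gene 72.9% passed, 44.2% higher and 28.7% lower, and among all peaks 73.2%. The 10 genes' shares were 50.0% higher and 17.2% lower. The 2 samples of each group did not overlap in 110 peaks, 77 higher and 33 lower, against 85.9% of all peaks. DESeq2 called 49 of the 128, 33 higher and 16 lower, where it called 20.2% of all peaks higher and 31.8% lower. Scaled by all counted reads, edgeR called 101 of the 128 higher and 11 lower, where 60.1% of all peaks were higher and 23.6% lower. These DESeq2 and all-reads backgrounds cover all peaks, not only those given to a gene. With edgeR and TMM the median change was 0.05 for all peaks and 0.17 for peaks given to a gene. Tet3 held 26 of the rising peaks, and without it 38 of 88 peaks rose and 20 fell, 43.2% and 22.7%.

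The direction of a peak went with its place in the deposited list. The list runs through the chromosomes once, for 67116 peaks, and then a second time for 148835 peaks, and the sources used here do not say what the runs are. Of the 18 peaks from the first run none rose and 13 fell, where 4.24% of first-run peaks given to genes rose and 83.0% fell. Of the 110 peaks from the second run 64 rose and 9 fell, where 56.9% rose and 11.5% fell. Both splits lay near the background of their own run.

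**Figure D2:**
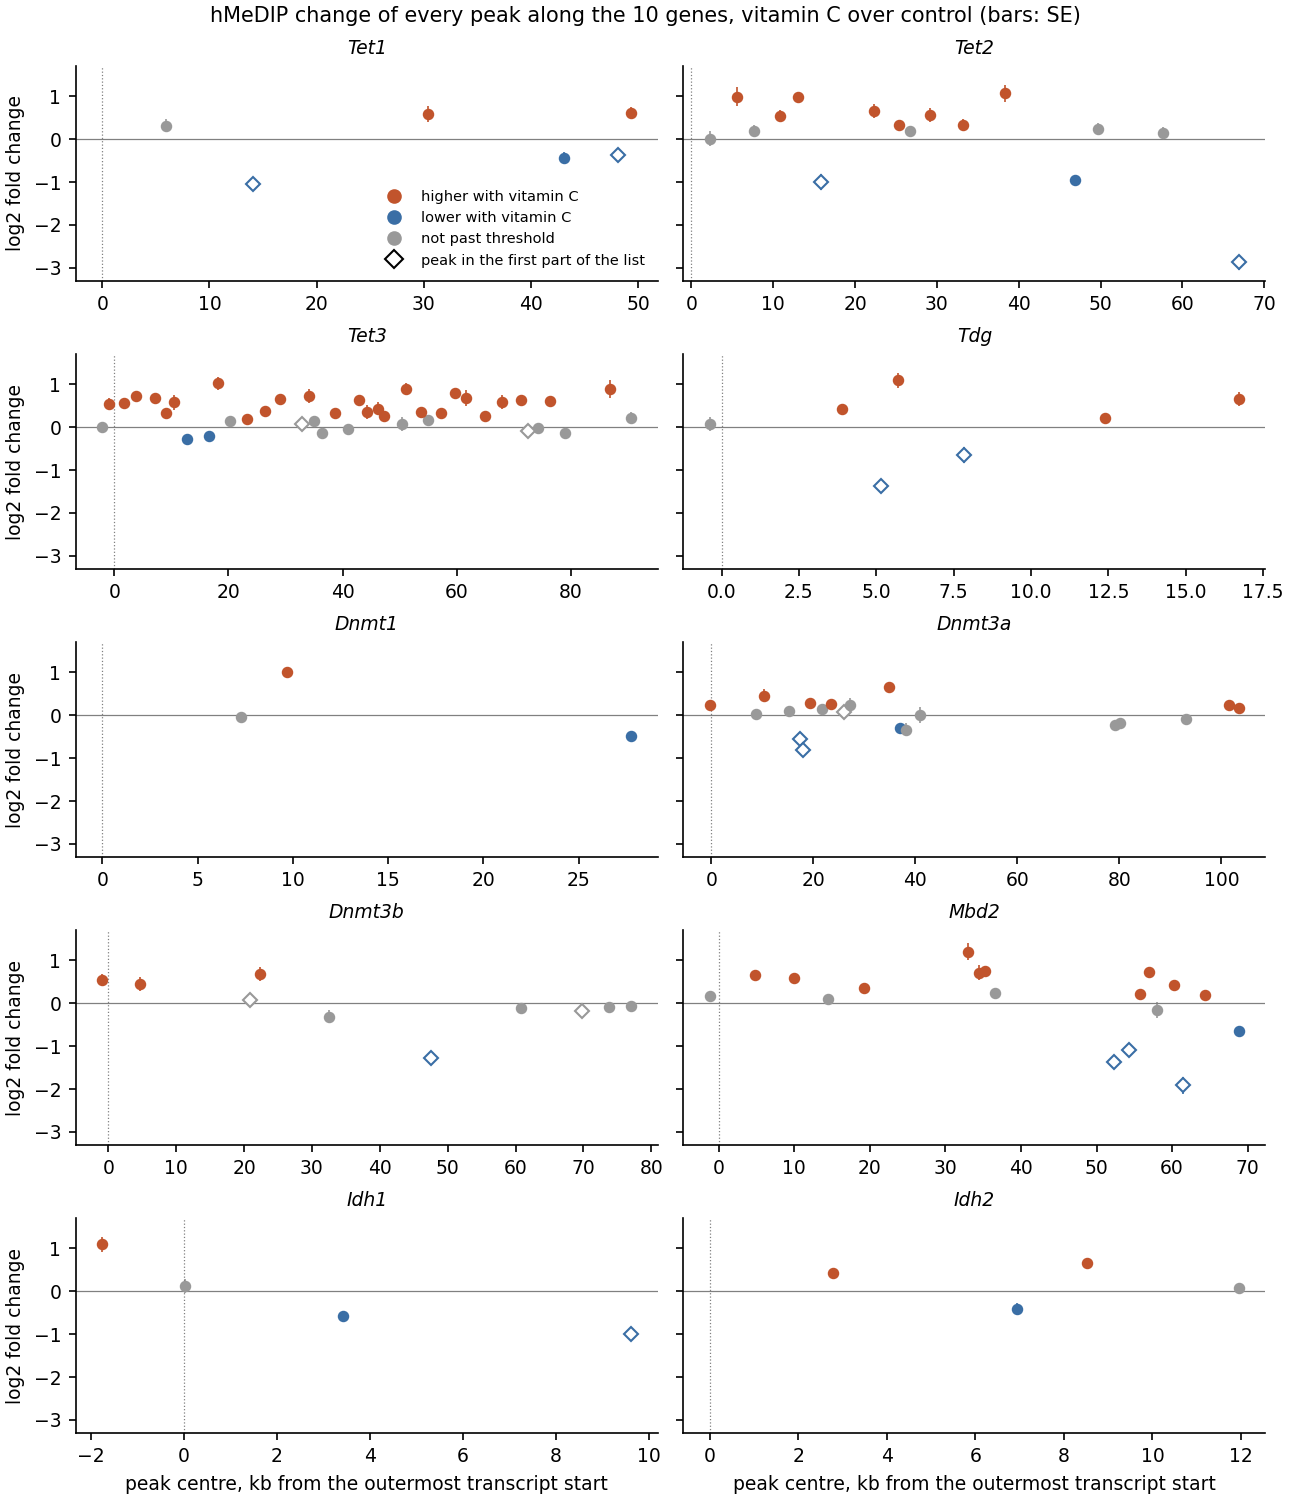
log2 fold change of hMeDIP reads, vitamin C over control, with SE bars, for each of the 128 peaks against the distance of the peak's centre from the outermost transcript start in kb; red marks peaks that passed higher, blue lower and grey neither, and open diamonds are peaks from the first run of the list. Most Tet3 peaks lie above 0 along the whole gene, whereas Tet2 has rising peaks up to 38 kb and its deepest fall near its far end.

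In Tet3, 26 peaks rose, 2 fell and 12 did not pass, with a median change of 0.34 and a range of −0.28 to 1.03. Of its 3 peaks labelled as promoter, the one centred at −943 bases from the start (chr4:115157890-115158522) had 3.84, 3.68 and 3.31 hMeDIP CPM with vitamin C, against 2.56, 2.42 and 2.48 CPM in controls, a rise of 0.55 ± 0.13 (edgeR adjusted p = 0.000281). The one 1725 bases into the gene rose as much, by 0.55 ± 0.07, and the one at −2119 bases did not pass, at 0.00 ± 0.11. The rising peak of smallest p, 71200 bases in, held 11.8, 11.1 and 10.9 CPM with vitamin C, against 7.44, 7.15 and 7.22 CPM in controls. Its highest peak, 23233 bases in, had 24.0 ± 1.35 CPM with vitamin C and 21.0 ± 0.40 CPM in controls (SD, n = 2 each), a rise of 0.19 ± 0.06 that was lost with DESeq2 and without vitamin C replicate 2 (adjusted p = 0.105 and 0.0829). The falling peak of smallest p, 12759 bases in, had 11.2 ± 0.02 CPM with vitamin C and 14.2 ± 1.60 CPM in controls. Positions are printed as deposited, on a genome build that the sources used here do not name. Distances are from the start of the transcript that the list gives each peak, which can differ within a gene.

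Tet2 had the steepest single loss among the 128 peaks, at a peak from the first run, where 83.0% of peaks given to genes fell. This peak, 66907 bases from the Tet2 start (chr2:238735801-238736434), had 0.612, 0.498 and 0.803 hMeDIP CPM with vitamin C, against 4.14, 4.89 and 5.05 CPM in controls. The groups lie far apart, with a change of −2.87 ± 0.17 (edgeR adjusted p = 1.29e-18). Enrichment was read as the ratio of the shares of all counted reads in hMeDIP and input. It was 0.872 at this peak with vitamin C and 5.72 in controls. Treated cells thus lay near the level of input there, on 22, 20 and 33 hMeDIP reads, and this ratio was not tested. Input itself held 22, 38 and 33 reads there with vitamin C and 26, 21 and 31 reads in controls. The highest Tet2 peak, 46843 bases in, also fell, by 0.94 ± 0.08, while 8 of its 16 peaks rose, all within 38260 bases of the start. One of them, 13066 bases in, had 5.20 ± 0.14 CPM with vitamin C and 2.62 ± 0.03 CPM in controls (SD, n = 2 each). Tet1, with 6 peaks, had 2 that rose and 3 that fell. Its highest, the first-run peak 48081 bases in, fell by 0.38 ± 0.13, a call lost with DESeq2 and without control replicate 2. The other first-run peak of Tet1, 14107 bases in, fell by 1.052 ± 0.157. The second-run peak 49347 bases in rose by 0.61 ± 0.13.

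Mbd2 had 10 rising and 4 falling peaks of 18. The broad peak 4783 bases into the gene (chr18:65816190-65821429) held 27.2, 27.0 and 28.3 hMeDIP CPM with vitamin C, against 18.4, 16.7 and 17.6 CPM in controls. No treated library came near a control, and the rise was 0.66 ± 0.06 (edgeR adjusted p = 2.85e-13), with enrichment over input at 5.21 and 2.53. Its highest peak, 64316 bases in, rose by 0.18 ± 0.05, a call that DESeq2 did not make, and its promoter-labelled peak at −1172 bases did not pass, at 0.17 ± 0.10. Between 52292 and 61506 bases from the start 3 first-run peaks fell, by 1.38, 1.09 and 1.91, between others that rose. Dnmt3a had 7 rising and 3 falling peaks of 20. Its promoter peak at −264 bases rose by 0.24 ± 0.06, a call DESeq2 did not make (adjusted p = 0.0544). The one 34854 bases in rose by 0.67 ± 0.08, and the first-run peak 17969 bases in fell by 0.82 ± 0.16. In Dnmt3b the peaks at −881 and 9331 bases rose by 0.55 ± 0.14 and 0.69 ± 0.17, neither called by DESeq2 (adjusted p = 0.0652 and 0.0607). The distance of 9331 is from another transcript's start, and that peak lies 22341 bases from the outermost start. The first-run peak 47526 bases in fell by 1.27 ± 0.15, and 6 of its 10 peaks did not pass, the highest of them, 73800 bases in, among these (−0.08 ± 0.07). Dnmt1 had 1 rising peak, 9679 bases in (0.997 ± 0.124), and 1 falling peak, 27767 bases in (−0.48 ± 0.12), and its highest did not pass, at 24.5 ± 0.12 CPM with vitamin C and 25.2 ± 1.04 CPM in controls. Tdg had 4 rising and 2 falling peaks of 7, of which neighbours centred 5119 and 4570 bases from its start differed by 1.09 ± 0.17 and −1.37 ± 0.17, the one higher being from the second run and the one lower from the first. Its highest peak, 11812 bases in, rose by 0.21 ± 0.09, a call lost with DESeq2, with DESeq2's size factors in edgeR and without vitamin C replicate 2. Its promoter-labelled peak at −376 bases did not pass, at 0.07 ± 0.17.

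In Idh1 both peaks of the gene body fell while the peak upstream of it rose. Of its 4 peaks, the one 9620 bases in is from the first run of the list and the other 3 are from the second. The peak 3414 bases into the gene (chr9:71896181-71897080) had 5.37, 5.90 and 6.01 hMeDIP CPM with vitamin C, against 8.99, 8.66 and 8.50 CPM in controls, and fell by 0.58 ± 0.09 (edgeR adjusted p = 9.76e-08). The peak 9620 bases in had 3.37, 3.18 and 3.46 CPM with vitamin C, against 6.65, 7.32 and 6.27 CPM in controls, and fell by 1.002 ± 0.106. The one at −1753 bases rose, with 2.67, 2.39 and 2.04 CPM against 1.39, 0.996 and 0.979 CPM (1.09 ± 0.18). At the start itself, 36 bases in, the peak had 2.09 ± 0.14 CPM with vitamin C and 1.98 ± 0.20 CPM in controls (edgeR adjusted p = 0.486). Idh2 had 2 rising peaks and 1 falling peak of 4, all from the second run. Its highest, the promoter-labelled peak 2781 bases in, rose by 0.42 ± 0.10 and the one 8514 bases in by 0.65 ± 0.12. The one 6940 bases in fell by 0.42 ± 0.14, a call DESeq2 did not make.

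Over the 10 genes, 11 peaks carried a promoter label, of which 6 rose and none fell, where 42.7% of all promoter-labelled peaks rose and 30.2% fell. That background mixes both runs of the list. The 6 that rose were from the second run, where 56.9% of peaks given to genes rose and 11.5% fell. To show what such promoters hold, the 250 bases before an annotated start are printed for the 5 genes whose RNA passed, 5′ to 3′ on the gene's own strand, with each CG, the dinucleotide on which these enzymes mostly act, in capitals. They come from RefSeq on the build GRCr8, on which the peaks cannot be placed. They are chr4:117521046-117521295 (minus strand) for Tet3, chr7:22985101-22985350 (minus) for Tdg, chr18:66449108-66449357 (plus) for Mbd2, chr9:74049475-74049724 (minus) for Idh1 and chr1:143467249-143467498 (minus) for Idh2. For Tet3 RefSeq gives several starts, and the window richest in CG was taken.
Tet3: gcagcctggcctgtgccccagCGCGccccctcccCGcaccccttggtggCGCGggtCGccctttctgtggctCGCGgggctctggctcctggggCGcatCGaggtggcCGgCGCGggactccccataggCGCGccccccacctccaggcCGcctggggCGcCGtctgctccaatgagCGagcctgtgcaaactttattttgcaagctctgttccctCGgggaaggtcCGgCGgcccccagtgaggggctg
Tdg: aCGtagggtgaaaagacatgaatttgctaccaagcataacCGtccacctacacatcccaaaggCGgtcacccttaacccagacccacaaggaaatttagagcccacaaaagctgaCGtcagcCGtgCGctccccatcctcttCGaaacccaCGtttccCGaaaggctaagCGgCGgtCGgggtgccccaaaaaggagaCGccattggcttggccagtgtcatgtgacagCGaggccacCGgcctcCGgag
Mbd2: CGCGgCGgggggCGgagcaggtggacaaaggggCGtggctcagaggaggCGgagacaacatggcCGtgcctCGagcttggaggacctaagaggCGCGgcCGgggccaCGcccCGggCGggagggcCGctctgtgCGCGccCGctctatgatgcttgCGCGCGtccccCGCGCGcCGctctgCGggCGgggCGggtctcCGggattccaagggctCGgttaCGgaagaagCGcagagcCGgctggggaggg
Idh1: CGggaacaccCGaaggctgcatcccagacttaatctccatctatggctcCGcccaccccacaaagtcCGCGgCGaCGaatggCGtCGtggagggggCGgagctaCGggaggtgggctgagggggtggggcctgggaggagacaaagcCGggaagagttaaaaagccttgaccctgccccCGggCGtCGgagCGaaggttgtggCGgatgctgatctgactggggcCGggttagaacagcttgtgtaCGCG
Idh2: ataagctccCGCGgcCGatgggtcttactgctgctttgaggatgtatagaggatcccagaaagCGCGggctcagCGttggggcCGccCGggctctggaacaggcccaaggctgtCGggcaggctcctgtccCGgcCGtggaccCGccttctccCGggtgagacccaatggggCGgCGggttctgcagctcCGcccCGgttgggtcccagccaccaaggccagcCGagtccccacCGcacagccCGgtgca

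Mbd2 held 33 CG in these 250 bases, Tet3 22, Idh1 20, Idh2 20 and Tdg 16. CG reads the same on both strands, does not overlap itself, and occurs at least once in 92.2% of the 33469 such windows in the RefSeq table, whose median is 5. As many as Mbd2's were found in 3.60% of windows, as many as the Idh genes' in 16.7% and as many as Tdg's in 23.8%. The richest of all was Tet2, with 38 (1.69% of windows), whose single promoter-labelled peak did not pass, at 1.84 ± 0.25 CPM with vitamin C and 1.82 ± 0.30 CPM in controls. The window of Dnmt3a held 18, that of Dnmt1 9 and those of Tet1 between 1 and 12. The Tet3 windows not printed held 12, 3 and 3.

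Summed over all its peaks, each gene was tested once, again with edgeR over all 17003 genes with a peak. Of the 10 genes 5 rose (Tet3, Tdg, Dnmt3a, Mbd2, Idh2) and 1 fell (Idh1), where 74.6% of genes passed, 37.3% higher and 37.3% lower. The samples of the groups did not overlap in 9 genes, all but Tet1, and in 87.3% of all genes. Tet3 had 507, 524 and 515 hMeDIP CPM with vitamin C, against 423, 424 and 424 CPM in controls, a rise of 0.28 ± 0.03 (n = 2 each, adjusted p = 8.07e-12). Mbd2 had 273, 269.6 and 273 CPM with vitamin C, against 231, 233 and 239.9 CPM in controls, a rise of 0.20 ± 0.03. Idh1 had 25.9, 25.3 and 26.1 CPM with vitamin C, against 34.1, 34.7 and 33.3 CPM in controls. It was the lone falling gene, by 0.41 ± 0.06 (adjusted p = 2.69e-07). Idh2 rose by 0.25 ± 0.06, Tdg by 0.19 ± 0.06 and Dnmt3a by 0.10 ± 0.03, the last lost without vitamin C replicate 2 (0.09, adjusted p = 0.0623). DESeq2 did not call Tdg (adjusted p = 0.0511). With second-run peaks alone summed and scaled to one another, Dnmt3a was called lower (−0.12 ± 0.02, edgeR adjusted p = 4.30e-05) and Idh2, whose 4 peaks are all from that run, was not called (0.0073, edgeR adjusted p = 0.911). On that scale Tet3 was at 0.046 and Mbd2 at 0.072, still past the threshold, and Dnmt1 and Dnmt3b were called lower (−0.21 and −0.19), where 31.0% of genes were higher and 31.0% lower. Tet1, Tet2, Dnmt1 and Dnmt3b differed by −0.07, 0.04, 0.04 and −0.05, all within 2 SE.

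Input reads over the same peaks gave no call, 0 of 128 by edgeR and by DESeq2, and 0.0% of all 215759 input peaks tested. At an unadjusted p under 0.05 there were 7 of the 128 peaks, where 4.86% of all input peaks had one. Relative to input, tested as the interaction of assay and treatment on gene sums, Tet3 rose by 0.31 ± 0.04, Mbd2 by 0.22 ± 0.04 and Dnmt3a by 0.12 ± 0.04, and Idh1 fell by 0.56 ± 0.12 (edgeR adjusted p = 6.27e-13, 4.54e-06, 0.0165 and 2.54e-05). Among all genes 56.2% passed this test, 27.2% higher and 29.0% lower. The rises of Tdg and Idh2 in summed hMeDIP did not pass relative to input (0.13 ± 0.10 and 0.12 ± 0.09, edgeR adjusted p = 0.250 and 0.248). The Dnmt3a call was lost without vitamin C replicate 2 or control replicate 2 (edgeR adjusted p = 0.149 and 0.0647).

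**Figure D3:**
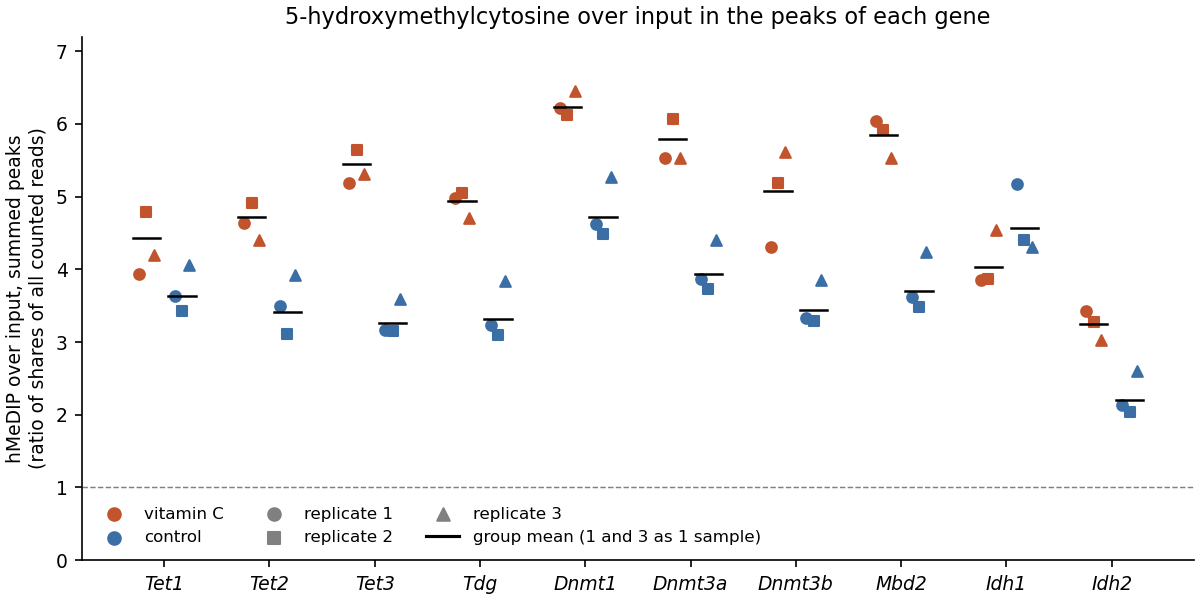
hMeDIP over input in the summed peaks of each gene, as the ratio of the shares of all counted reads, for each library with vitamin C to the left of controls; bars are group means with replicates 1 and 3 as 1 sample, and the dashed line marks a ratio of 1. All vitamin C libraries lie above all controls in 8 genes, a separation whose share over all genes was not taken. On this scale the median log2 change over input of all genes was 0.43. In Tet1 and Idh1 the libraries overlap, and in Idh1 the vitamin C mean is the lower one.

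In these unadjusted ratios, where the shared shift is kept, Tet3 stood at 5.19, 5.64 and 5.31 over input with vitamin C, against 3.17, 3.16 and 3.59 in controls. Mbd2 stood at 5.85 ± 0.09 with vitamin C and 3.70 ± 0.32 in controls (SD, n = 2 each), and Dnmt1 at 6.23 ± 0.15 and 4.72 ± 0.33. Idh2 had the lowest ratios, 3.25 ± 0.04 with vitamin C and 2.20 ± 0.24 in controls. Idh1 had 3.85, 3.87 and 4.54 with vitamin C, against 5.17, 4.41 and 4.31 in controls. Its libraries overlapped, as did those of Tet1, whose vitamin C libraries lay at 3.93 to 4.79 and whose controls at 3.43 to 4.05. Tested on this scale of all counted reads, hMeDIP sums of 9 genes were higher and none lower, where 64.9% of all genes were higher and 17.5% lower, and that of Idh1 did not pass (0.0041, where the median of all genes was 0.43).

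RNA and hMeDIP changes of the same gene are set side by side as a description. Tet3 and Mbd2 rose in both RNA and summed hMeDIP, and Idh1 fell in both. Tdg and Idh2 fell in RNA while their summed hMeDIP rose, though not past the threshold relative to input. Dnmt3a rose in hMeDIP with an RNA difference of −0.19 that did not pass, and Tet1, Tet2, Dnmt1 and Dnmt3b passed in neither.

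**Figure D4:**
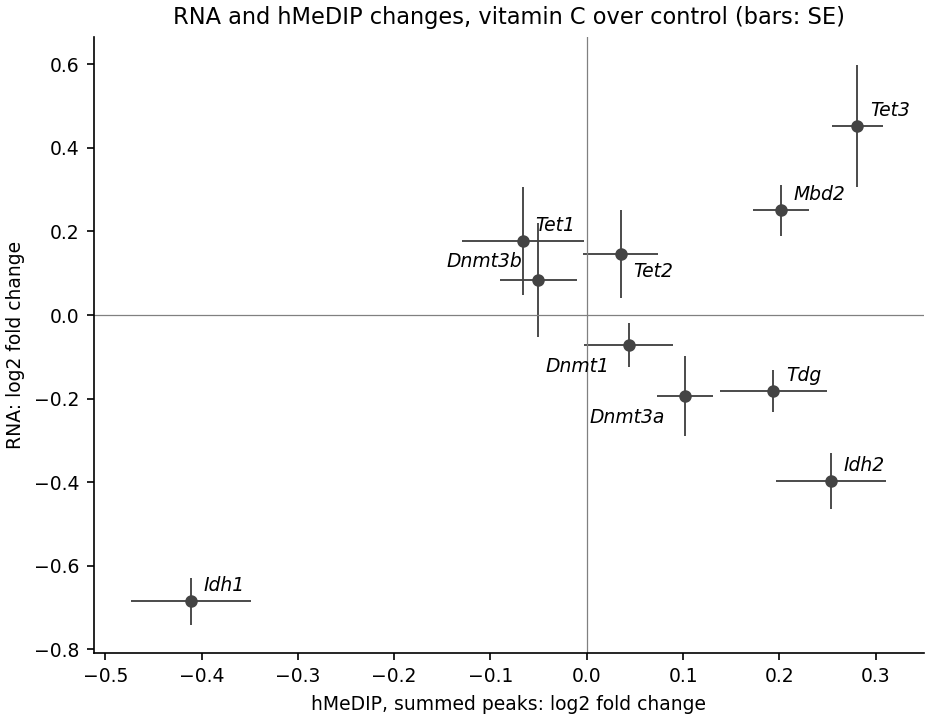
log2 fold change of RNA (vertical) against that of hMeDIP reads summed over peaks (horizontal), vitamin C over control, for the 10 genes, with SE bars. Tet3 and Mbd2 lie in the upper right, Idh1 alone in the lower left at −0.69 and −0.41, and Idh2 and Tdg in the lower right.

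In the pathway lists, hMeDIP sums of the 2-oxoglutarate genes rose in 7 and fell in 5 of 13. Those of removal and binding of oxidised cytosine rose in 3 and fell in 3 of 9. Those of maintenance and readers rose in 4 and fell in 3 of 8. Among all genes with a peak 37.3% rose and 37.3% fell. The medians of these lists were 0.22, 0.11 and 0.14, against 0.01 for all genes and 0.07 for the 10 genes described here.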

How the data were processed

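Reads per gene (RNA) and per peak (hMeDIP, input) were used as the whole-number counts the authors deposited, and positions and gene names came from the deposited peak list. Tools named in the submitters' processing notes are STAR, BWA, HTSeq, Trim Galore and CASAVA 1.4, with no role for each. Genome build, annotation, peak caller and strand setting were not given in the sources used here. The peak list pairs 17003 of the 32883 RNA identifiers with a symbol, so list genes without a peak, such as Uhrf1, Mbd3 and Ogdh, were not analysed here.

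Entries that name no gene or peak held 42.3% to 53.9% of RNA reads, and in hMeDIP 56.1% to 69.2%, in input 91.3% to 91.6%, and entered neither library sizes nor tests. Each assay was fitted over all its features with edgeR 4.0.16 (R 4.3.3) with TMM factors, filterByExpr and a quasi-likelihood F test of treatment, and p-values were adjusted by Benjamini and Hochberg's method with a threshold of 0.05. Every one of the 10 genes and 128 peaks passed the filter on low counts. Levels are TMM-scaled CPM, over reads in genes or peaks, and changes are given as log2 of the fold (vitamin C over control) with SE. CPM is not divided by length, so levels are not compared between genes. hMeDIP replicates 1 and 3 were summed for the fit, their chi-square per degree of freedom being 0.896 with vitamin C and 0.963 in controls, against 1.08 to 1.47 for the other pairs within a group. Input pairs all had values under 1, as did input pairs across groups, and none was summed in the fit of input alone. Enrichment over input was tested on sums per gene with a term per sample, input being summed over the same replicates. Ratios over input of a single peak pool the 3 libraries of a group. No molecular identifiers are mentioned, so reads need not be independent molecules.

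The 10 genes, the pathway lists and the marker lists were chosen with earlier results of these data known, and some genes of the lists are not reported here. Named are all 10 genes, and for each its highest peak, its peak of smallest p in each direction and its promoter-labelled peaks. Other Mbd2 peaks, Xrcc1, Lig3, Smug1, Idh3a and Mki67 fall outside that rule and were picked with their values in view. Alternatives were other scaling factors, no filter, DESeq2 1.42.0, a replicate block, leaving out each library in turn, and all hMeDIP libraries as deposited. Summing peaks of the second run alone, the factors of the peak table and the crossed block were chosen after seeing the data. The scripts were tested on simulated data. Python 3.11.15, numpy 2.4.6, pandas 2.3.3 and matplotlib 3.10.9 were also used.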

Additional observations from a re-analysis of the deposited data

How the results depend on the processing

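Counts of calls among the 10 genes or 128 peaks stayed within 1.5 times the reported count except as follows. RNA calls numbered 2 when scaled by all counted reads and 2 to 6 on leaving out 1 library. The lowest, 2, came without control replicate 2, and 3 came without control replicate 1. DESeq2 called 49 peaks, against 86 with edgeR. Enrichment over input had 8 calls, all higher, when scaled by all counted reads, which called 56.5% of all genes higher and 13.1% lower. That scaling moved the median of all peaks to 0.49, against 0.05, and turned the sign of Tet1 (0.36), Dnmt3b (0.37) and Idh1 (0.0041) in gene sums and of Tet1 (0.24) and Dnmt1 (0.39) in enrichment. It also turned the peaks at 7272 bases of Dnmt1 (0.42), 73800 of Dnmt3b (0.38), 48081 of Tet1 (0.041) and 12759 of Tet3 (0.15). The Tet2 peak at 2264 bases read −0.024 with DESeq2's size factors in edgeR, −0.012 with DESeq2, −0.0015 with all libraries and −0.10 to 0.12 on leaving out 1 library. The Tet3 peak at −2119 bases read −0.033, −0.017 and −0.013 in the first 3 of these settings and −0.099 to 0.093 on leaving out 1 library. Enrichment of Dnmt1 read 0.0039 with DESeq2's size factors and −0.053 to 0.037 on leaving out 1 library, that of Tet2 −0.022 to 0.071, and RNA of Dnmt3b −0.019 to 0.15. Summing second-run peaks alone gave 7 gene calls, 3 higher and 4 lower, with Tet2 at −0.053, Dnmt1 at −0.21 and Dnmt3a, called higher in the reported sums, at −0.12 and called lower. The cause of these moves was not tested. Summing gene body and promoter peaks alone equals the reported sums, since the list gives a gene no other peaks.

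Replicate numbers are not said to pair samples, and same-numbered RNA libraries correlated at 0.246, 0.132 and 0.0273 in their deviations, with 3 of the 6 libraries correlating best with another number. With the replicate block, calls numbered 5 in RNA, 83 in hMeDIP peaks, 6 in gene sums, 4 in enrichment and 0 in input. hMeDIP numbers correlated at −0.205, and a crossed block called 91 peaks and 6 gene sums, with the Tet2 peak at 2264 bases at −0.0061. Depth limits Dnmt3b in RNA (77 to 125 reads) and single input peaks (6 to 246 reads), where small differences were not detectable.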
